A study of Mus musculus with 22 samples.

Results

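The 9 genes H19, Dlk1, Peg3, Cdkn1c, Plagl1, Mest, Peg10, Sgce and Phlda2 are imprinted genes of embryonic growth, and they were read in forelimbs of mouse embryos that lack Chsy-1 and in wild-type forelimbs. They were chosen by name. Every non-control probe whose gene name, or RefSeq accession, was that of a member was taken, which gave 16 of 41174 probes on the array: 3 for Peg3, 2 each for H19, Dlk1, Plagl1, Sgce and Phlda2, and 1 each for Cdkn1c, Mest and Peg10. All 9 genes passed the filter on signal and were tested among 18625 genes and unnamed probes, each gene by its probe of highest mean intensity. The series holds 13 samples of Chsy-1 knockout and 9 of wild type, all forelimbs of strain 129 at 13.5 days. Chsy1 codes for a glycosyltransferase that builds chondroitin sulfate, the sugar chain carried by many matrix proteoglycans. RNA of each sample was amplified, labelled with Cy5 and hybridised beside Cy3-labelled universal mouse reference RNA, a commercial pool, without a dye swap. The labels do not say which part of Chsy-1 was altered or whether a sample is 1 embryo or a pool, so p-values measure the spread between these samples, which may be technical in part.

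An imprinted gene is expressed mainly from the copy inherited from 1 parent, a choice set by DNA methylation of a control region in the germ line. Many imprinted genes act on growth before birth, and as a rule copies expressed from the father favour growth while those expressed from the mother restrain it. Cdkn1c, Phlda2 and H19 are expressed from the maternal copy, and Plagl1, Mest, Dlk1, Peg3, Sgce and Peg10 from the paternal copy. Several lie in shared clusters, so that H19 has Igf2 as its partner, Dlk1 has Meg3, and Sgce lies head to head with Peg10.

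On GRCm38.p6, the RefSeq build used for names and sequences, H19 lies at chr7:142575530-142578146, Cdkn1c at chr7:143458339-143461059 and Phlda2 at chr7:143501545-143503145, all at the distal end of chromosome 7. Peg3 lies at chr7:6703892-6730462. Sgce at chr6:4674350-4747204 and Peg10 at chr6:4747306-4760517 are separated by 101 bases, and Mest is on the same chromosome at chr6:30733506-30748466. Plagl1 lies at chr10:13090832-13131694 and Dlk1 at chr12:109452485-109463336. H19 is a long non-coding RNA and the other 8 genes code for proteins.

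H19 and Mest each carry a microRNA within their transcribed span, miR-675 and miR-335. Their mature arms, from RefSeq, are shown because they are the known small RNA products of these loci. The arrays did not measure them. Capitals mark the seed, bases 2 to 8, and the 4 arms have 4 different seeds.
mmu-miR-675-5p, chr7:142577112-142577133, minus strand: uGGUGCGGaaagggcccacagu
mmu-miR-675-3p, chr7:142577078-142577099, minus strand: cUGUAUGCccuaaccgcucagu
mmu-miR-335-5p, chr6:30741314-30741336, plus strand: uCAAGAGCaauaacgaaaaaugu
mmu-miR-335-3p, chr6:30741354-30741375, plus strand: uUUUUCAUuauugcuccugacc

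Plagl1 encodes a zinc finger transcription factor known to bind the palindrome GGGGCCCC. RefSeq promoters, the 250 bases before an annotated start, were available for Mest, Peg3, Phlda2, Plagl1 and Dlk1. Such a start need not be the outer end of the gene. The promoters of Dlk1 and Phlda2 lie within the gene spans given above, and that of Peg3 overlaps its span. The 8 letters GGGGCCCC, which read the same on both strands, occurred in 1 of the 7 promoters of these 5 genes, that of Peg3, 201 to 194 bases before the start. Of all 32851 mouse promoters of this length in the table, 0.889% held them. The 7 are not all separate sequences, since the Mest promoters at chr6:30737800-30738049 and chr6:30737803-30738052 share nearly all their bases. Capitals mark these letters in the Peg3 promoter. The promoters of Plagl1 and Dlk1, the pair whose shared variation was among the strongest, are shown beside it and hold 19 and 8 CG pairs.
Peg3 promoter, chr7:6730420-6730669, minus strand: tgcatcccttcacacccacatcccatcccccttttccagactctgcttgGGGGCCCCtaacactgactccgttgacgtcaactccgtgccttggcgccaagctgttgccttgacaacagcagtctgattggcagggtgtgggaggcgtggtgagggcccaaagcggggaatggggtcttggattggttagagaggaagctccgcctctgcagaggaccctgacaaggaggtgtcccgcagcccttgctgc
Plagl1 promoter, chr10:13090582-13090831, plus strand: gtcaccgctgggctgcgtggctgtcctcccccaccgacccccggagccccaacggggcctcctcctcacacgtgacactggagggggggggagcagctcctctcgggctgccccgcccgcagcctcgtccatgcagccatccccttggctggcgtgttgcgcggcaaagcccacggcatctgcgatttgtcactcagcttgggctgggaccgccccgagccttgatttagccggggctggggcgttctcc
Dlk1 promoter, chr12:109452573-109452822, plus strand: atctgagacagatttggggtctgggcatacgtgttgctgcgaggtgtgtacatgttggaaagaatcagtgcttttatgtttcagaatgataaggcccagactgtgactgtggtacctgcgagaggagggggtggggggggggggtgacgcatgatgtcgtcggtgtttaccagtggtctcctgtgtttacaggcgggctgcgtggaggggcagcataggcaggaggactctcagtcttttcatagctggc

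Facts of the whole series bear on how these genes can be read. Each array had 27214 to 30599 of its 43379 non-control spots well above background in Cy5, no non-control spot was saturated, and the number of arrays limits the precision. Chsy1 had a log2 ratio to the reference of -4.38 ± 1.39 (SD, n = 13) in knockout and 1.73 ± 0.28 (SD, n = 9) in wild type. The array labelled knockout 1 stood at 0.15, between the other knockout arrays, at most -4.05, and the wild-type arrays, at least 1.28. Markers of the labelled tissue were present: all 8 listed genes of limb mesenchyme and all 8 of cartilage were measured, with median log2 ratios of 2.55 and 3.11, while 11 of 12 for skeletal muscle were measured, without Myf5. The arrays lay on 6 slides that each held both genotypes, but position on the slide was uneven: position 1 held 6 wild-type arrays, position 2 held 3 arrays of each genotype, and positions 3 and 4 held 6 and 4 knockout arrays. After genotype means were removed, 4 arrays stood apart. Wild type 1 and knockout 12 had the 2 highest scores on the second principal component (22.9% of the variance), and knockout 5 and wild type 3 had the highest on the first (24.9%). These 4 were chosen after their values were seen. Wild type 4 deviated as far over all genes as wild type 3, and wild type 6 lay at the low end of the first component, and both were kept.

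Most members were far more abundant in forelimb than in the reference pool. Of the 9 members, 8 had a mean log2 ratio above 1, against 12.4% of all tested genes, and their median was 3.21 against 0.10 over all genes. This is a description without a test, because the reference is 1 RNA pool and the dyes were not swapped. A ratio also depends on how much of a gene the pool holds, so it does not order the genes by RNA amount. Its size also depends on the normalisation: over all arrays, median centring in place of loess put Mest at 7.95 against 7.09 on the log2 scale, and it raised H19, Dlk1, Cdkn1c, Plagl1 and Sgce by over 1.5-fold as well.

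Mest, a hydrolase-fold protein first known from mesoderm, had the second highest ratio of all 18625 genes and unnamed probes. Its log2 ratio was 6.73, 7.03 and 7.35 (lowest, median and highest) over the 13 knockout arrays and 6.59, 7.11 and 7.41 over the 9 wild-type arrays. The genotypes overlapped.

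Cdkn1c, the cyclin-dependent kinase inhibitor p57, ranked 5 of all genes. Its log2 ratio was 5.34, 5.92 and 6.56 (lowest, median and highest) in knockout and 5.73, 6.20 and 6.72 in wild type. The knockout arrays sat lower as a group, with 12 of the 13 below the wild-type median, but the highest of them, knockout 5, exceeded all wild-type arrays but wild type 3.

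Phlda2, a pleckstrin homology protein that limits placental growth, and H19 were the other maternal genes. The log2 ratio of Phlda2 was 2.45, 3.30 and 3.68 (lowest, median and highest) in knockout and 2.03, 3.45 and 3.68 in wild type. The low ends were single arrays, knockout 12 and wild type 1. Over all arrays Phlda2 stood at 3.31, against 4.81 with the scanner's ratio, which has no offset. That of H19 was 2.34, 2.73 and 2.99 in knockout and 2.28, 2.70 and 3.36 in wild type. The medians of H19 were nearly equal and its wild-type arrays spread more widely (SD 0.34, against 0.18 in knockout).

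Plagl1 ranked 61 and was among the most variable genes of the table. Its log2 ratio was 3.00, 4.71 and 5.22 (lowest, median and highest) in knockout and 3.35, 4.60 and 5.42 in wild type. The SD within genotypes was 0.62, higher than that of 99.2% of all tested genes. The lowest arrays were knockout 5 in the knockout group and wild type 3 in the wild-type group.

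Peg3, a large zinc finger protein, varied almost as much on the probe that stood for it, with a within-genotype SD of 0.54, higher than that of 98.4% of genes. Its log2 ratio was 1.82, 3.16 and 3.87 (lowest, median and highest) in knockout and 2.39, 3.41 and 4.27 in wild type. Knockout 5 and wild type 3, the lowest arrays for Plagl1, were here the highest of their genotypes. The 3 probes of Peg3 did not behave alike. Another bright probe had an SD of only 0.12 in knockout and 0.36 in wild type and correlated with the tested one at r = 0.32 across arrays, while the remaining probe stayed near the reference, at -0.13 in knockout and -0.05 in wild type. Over all arrays the tested probe stood at 3.21, against 4.11 with the scanner's ratio. Statements on Peg3 below concern the tested probe at chr7:6311815-6311874 (mm8, the build of the files).

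Dlk1, a transmembrane protein with EGF-like repeats that can be shed from the cell, had a log2 ratio of 1.40, 1.75 and 2.19 (lowest, median and highest) in knockout and 1.27, 1.86 and 2.60 in wild type. Sgce, the epsilon member of the sarcoglycans, had 0.62, 1.34 and 1.49 in knockout and 0.68, 1.16 and 1.53 in wild type. As for Plagl1, the lowest Sgce arrays were knockout 5 and wild type 3. The genotypes overlapped for both genes.

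Peg10, a gene derived from a retrotransposon and needed in the placenta, was the only member near background. Its probe was well above background in Cy5 on 6 of 13 knockout arrays and 4 of 9 wild-type arrays, and in Cy3 on 0 of 22, with Cy5 signals of 68.0 to 105.1 units. Its log2 ratio ran from 0.05 to 0.42 in knockout and from 0.09 to 0.50 in wild type. At signals this low the offset added before taking logs shrinks a ratio, so Peg10 has no informative level here, and its other values carry that limit.

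**Figure D1:**
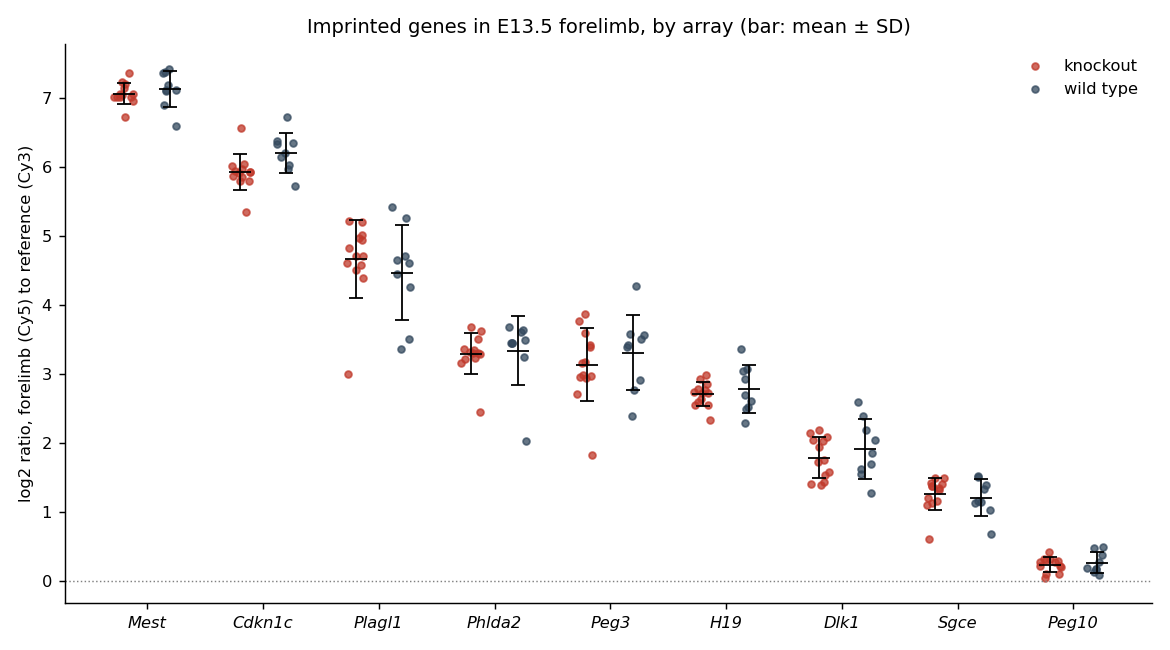
Log2 ratio of forelimb (Cy5) to reference (Cy3) on the vertical axis for each gene on the horizontal axis, with 1 point per array, 13 knockout arrays left and 9 wild-type arrays right, and bars for mean and SD. Mest lies near 7 in both genotypes, Peg10 near 0, and knockout and wild-type points overlap for every gene.

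The genotype comparison asks whether these growth genes differ in forelimb when Chsy-1 is missing. None of the 9 members passed an adjusted p of 0.05 in limma, where 0.0215% of all tested genes passed. At an unadjusted p of 0.05, 1 of 9 passed, against 5.33% of all genes. Of the fitted differences, knockout minus wild type, 7 were below 0 and 2 above it, with a median of -0.07 against -0.01 over all genes. In all 9 the arrays of the genotypes overlapped, whereas 0.00537% of tested genes had groups that did not overlap. No member was called without knockout 1 either. Fewer cells of a type and less RNA per cell cannot be told apart in these bulk samples. The directions also hang on the normalisation: with median centring in place of loess, the median difference of all genes stood at 0.24, and relative to that shift 5 members lay below and 4 above.

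Cdkn1c was the member that came nearest to a call. It averaged 5.92 ± 0.26 (SD, n = 13) in knockout and 6.20 ± 0.29 (SD, n = 9) in wild type. The difference was -0.28 on the log2 scale (SE 0.11, 95% interval -0.52 to -0.05), with an unadjusted p of 0.018 and an adjusted p of 0.92 in limma. It was below 0 on 5 of 6 slides, where it ran from -0.79 to 0.06, and at -0.28 within position 2, and it was -0.28 without knockout 1. Over the 18 arrays other than those that stood apart it was again -0.28, with an adjusted p of 0.22. With median centring it was 0.054 before and -0.18 after the shift of all genes was taken off.

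None of the other maternal genes showed a difference beyond its error. Phlda2 averaged 3.29 ± 0.30 (SD, n = 13) in knockout and 3.34 ± 0.51 (SD, n = 9) in wild type, a difference of -0.05 (95% interval -0.38 to 0.28). H19 averaged 2.70 ± 0.18 in knockout and 2.78 ± 0.34 in wild type, a difference of -0.07 (95% interval -0.29 to 0.15). The other probe of each gene gave 0.03 for Phlda2 and 0.06 for H19, so that even the sign depended on the probe.

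Among the paternal genes, Plagl1 had the largest positive difference and the widest interval. It averaged 4.67 ± 0.56 (SD, n = 13) in knockout and 4.47 ± 0.69 (SD, n = 9) in wild type, a difference of 0.20 (95% interval -0.31 to 0.71). Within position 2 it was -0.23, and the same with position as a block, since only position 2 holds both genotypes. Sgce stood at 1.27 ± 0.23 in knockout and 1.21 ± 0.27 in wild type, a difference of 0.06 (95% interval -0.16 to 0.27), and at -0.06 within position 2. The direction of both genes thus changed within position 2, which holds 3 arrays of each genotype and none of the 4 that stood apart. Over the 18 arrays without those 4, Sgce stood at -0.0017. The part of position in these changes was not tested.

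Peg3 averaged 3.13 ± 0.53 (SD, n = 13) in knockout and 3.31 ± 0.55 (SD, n = 9) in wild type, a difference of -0.18 (95% interval -0.62 to 0.27). The other bright Peg3 probe gave 0.05. Dlk1 averaged 1.79 ± 0.30 in knockout and 1.91 ± 0.43 in wild type, a difference of -0.12 (95% interval -0.42 to 0.17), and its other probe gave -0.17. Mest had the narrowest interval of the bright genes: 7.06 ± 0.15 in knockout and 7.13 ± 0.26 in wild type gave a difference of -0.07 (95% interval -0.24 to 0.11). Peg10, near background, differed by -0.03 (95% interval -0.15 to 0.09).

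**Figure D2:**
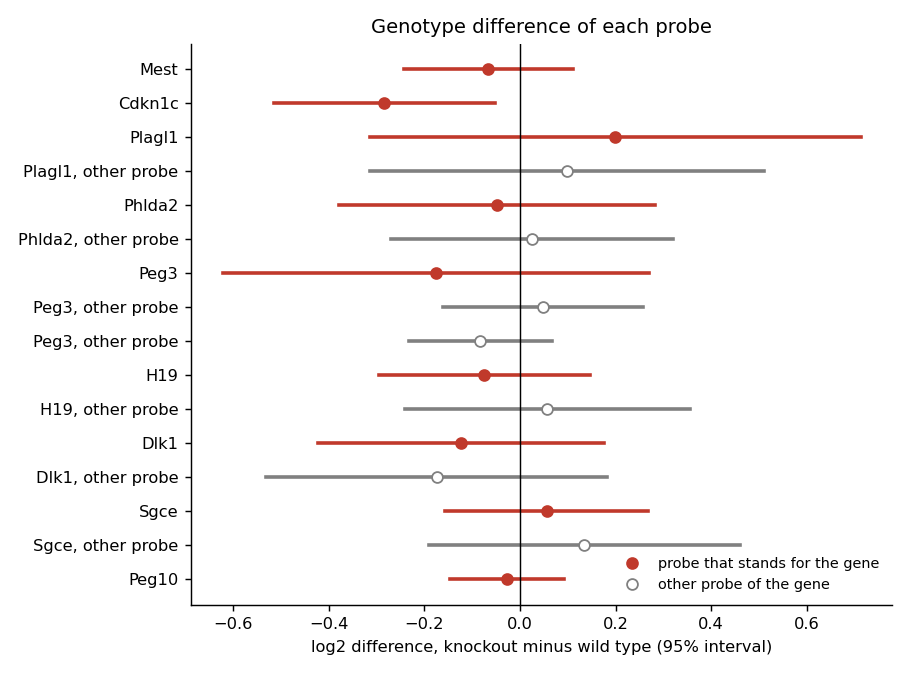
Log2 difference, knockout minus wild type, with its 95% interval on the horizontal axis for each of the 16 probes; filled points are the probes that stand for the genes and open points their other probes. The interval of the Cdkn1c probe, -0.52 to -0.05, leaves out 0, and those of the other probes include it.

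The pathway next to Cdkn1c was looked at through a list of 11 cyclins, kinases and inhibitors of the G1 phase. All 11 were tested, 6 were below 0 and 5 above, and 0 passed the adjusted threshold in limma, with a median of -0.05 against -0.01 over all genes. At an unadjusted p of 0.05 there was 1, the cyclin gene Ccne1, at 1.73 ± 0.08 (SD, n = 13) in knockout and 1.88 ± 0.08 (SD, n = 9) in wild type, with an adjusted p of 0.91 in limma. The kin of Cdkn1c, Cdkn1a and Cdkn1b, differed by -0.12 and -0.10.

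Of 56 other imprinted genes, 47 were tested. They too were mostly above the reference, with 80.9% at a log2 ratio above 0 against 57.1% of all tested genes. At a log2 ratio above 1, the threshold used for the members, the share was 46.8% against 12.4%. In the genotype comparison 26 were below 0 and 21 above, with a median of -0.00 against -0.01 over all genes, and 0 passed the adjusted threshold in limma. At an unadjusted p of 0.05 there was 1. This was Ano1, a calcium-activated chloride channel, which averaged -1.44 ± 0.16 (SD, n = 13) in knockout and -1.10 ± 0.34 (SD, n = 9) in wild type, a difference of -0.34 with an adjusted p of 0.91. The next in order of p were Snurf at 0.17, Igf2 at -0.13, Nnat at -0.16, Dcn at -0.24, Sfmbt2 at -0.15, Snrpn at 0.18 and Grb10 at 0.08, none of them past an unadjusted p of 0.05. Igf2, the fetal growth factor, averaged 4.17 ± 0.12 in knockout and 4.30 ± 0.27 in wild type.

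**Figure D3:**
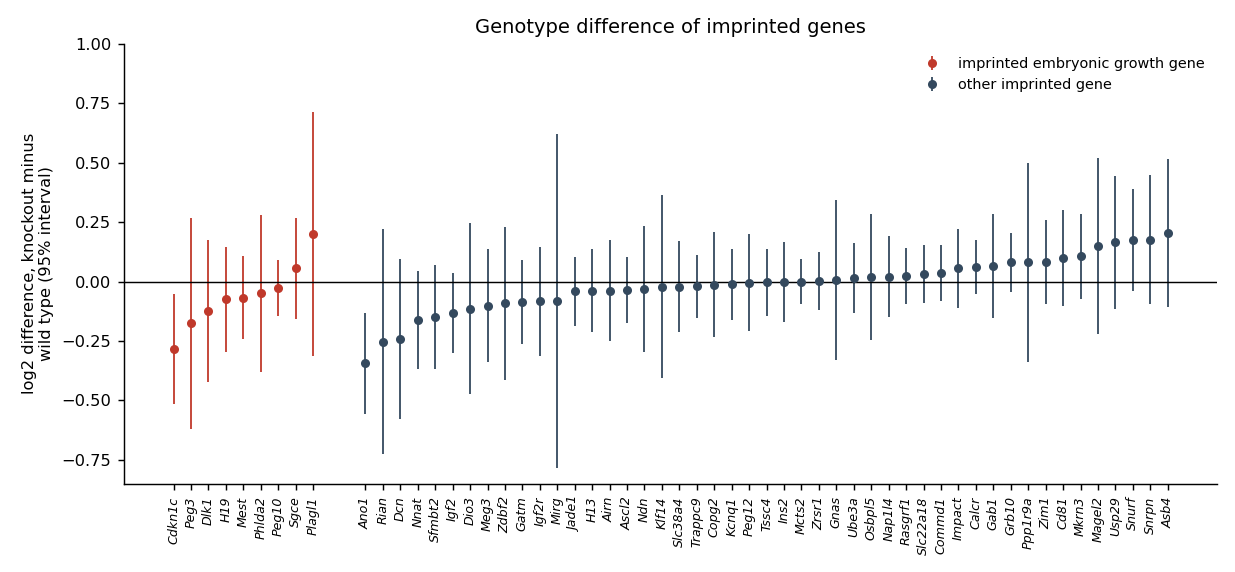
Log2 difference, knockout minus wild type, with its 95% interval on the vertical axis for the 9 members (red, left) and 47 other imprinted genes (dark, right), each set in order of the difference. Most intervals span 0, and Cdkn1c at -0.28 and Ano1 at -0.34 are the exceptions.

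Shared variation across arrays was examined after the genotype means were removed, so that a difference between genotypes could not create it. Over the 22 arrays, 14 of the 36 pairs of members correlated at an adjusted p of 0.05 in a two-sided permutation test, adjusted over the 36 pairs by Benjamini-Hochberg, 13 positively and 1 negatively. That is 38.9% of the pairs, and 21.5% of all pairings of a member with another gene reached the absolute r of the weakest of them, 0.48. The 4 arrays that stood apart carried much of this. Over the other 18 arrays 3 pairs were called, all of them among the 14 and all within Plagl1, Sgce and Dlk1, and 5.08% of the pairings of a member with another gene reached the weakest r there, 0.66. Without wild type 1 there were 7 pairs, without knockout 12 there were 6 and without knockout 1 there were 11, and over the 13 knockout arrays alone 3 and over the 9 wild-type arrays alone 1.

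Plagl1 and Sgce, on different chromosomes, followed each other most closely. Pearson's r was 0.92 and Spearman's rho 0.85 over the 22 arrays, both with a permutation p of 1e-05, the smallest these permutations can give, and an adjusted p of 0.00036. Within genotypes r was 0.91 over the knockout arrays and 0.93 over the wild-type arrays, and with slide means removed as well it was 0.92. Knockout 5 and wild type 3 were the arrays farthest from the Plagl1 median, and without these 2 r was 0.81. Without the 4 arrays that stood apart it was 0.84. The relation also appeared on other probes, with r = 0.71 between the other probe of Plagl1 and the other probe of Sgce. Many further genes shared this variation, since 515 of 18605 other genes correlated with Sgce at r above 0.8 and 175 with Plagl1. Such numbers were not particular to this pair, with 517 for Phlda2 and 331 for Peg3.

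Dlk1 joined this pair, on its tested probe, though by r to Dlk1 Plagl1 ranked only 35 and Sgce 519 of 18605 other genes. With Plagl1 its Pearson's r was 0.76 (permutation p = 3e-05, adjusted p = 0.00054) and its Spearman's rho 0.82 (permutation p = 2e-05, adjusted p = 0.00036). It was 0.68 over knockout and 0.83 over wild-type arrays, 0.73 with slide means removed, 0.67 without the 2 arrays farthest from the Dlk1 median, and 0.83 without the 4 that stood apart. With Sgce, Dlk1 had r = 0.60 (permutation p = 0.0024, adjusted p = 0.014) and rho = 0.63 (permutation p = 0.0021, adjusted p = 0.025), and r was 0.54 without the 2 arrays farthest from the Dlk1 median. The other probe of Dlk1 correlated with the tested one at r = 0.67, and gave only 0.33 with Plagl1 and 0.08 with Sgce, so these relations were not shared by both Dlk1 probes. That other probe had r = 0.83 with H19 and 0.66 with Igf2, against 0.45 and 0.44 on the tested Dlk1 probe.

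Of the other strong pairs, those of Peg3 with Cdkn1c and of Mest with Phlda2 were much weaker without the arrays that stood apart, on the tested probes. Peg3 and Cdkn1c had r = 0.77 (permutation p = 8e-05, adjusted p = 0.00096) and rho = 0.50 (permutation p = 0.020, adjusted p = 0.090), but r was 0.10 over the other 18 arrays. The other bright Peg3 probe gave 0.46 with Cdkn1c over the 22 arrays and 0.54 over the 18, so the loss was not shared by both probes. With Phlda2 that probe had r = 0.81 over the 22 arrays, against 0.48 on the tested Peg3 probe. Mest and Phlda2 had r = 0.73 (permutation p = 0.00055, adjusted p = 0.0044) and rho = 0.43 (permutation p = 0.048, adjusted p = 0.12), against r = 0.23 over the 18 arrays. Over all 22 arrays that r was 0.24 without background correction, 0.43 with the scanner's ratio and 0.72 with median centring. Peg3 and Sgce formed the negative pair, with r = -0.51 (permutation p = 0.017, adjusted p = 0.045) and rho = -0.49 (permutation p = 0.022, adjusted p = 0.090), and r = -0.45 over the 18 arrays. The other bright Peg3 probe gave 0.27 with Sgce, the opposite sign, and median centring gave -0.16 on the tested probe. Without the 2 arrays farthest from the median of the first gene named, r was 0.58 for Peg3 and Cdkn1c, 0.57 for Mest and Phlda2 and -0.72 for Peg3 and Sgce.

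H19 and Mest had r = 0.68 (permutation p = 0.00061, adjusted p = 0.0044) and rho = 0.61 (permutation p = 0.0033, adjusted p = 0.030). Their r was 0.47 over knockout and 0.77 over wild-type arrays, 0.63 without the 2 arrays farthest from the H19 median, and 0.60 over the 18 arrays, where the adjusted p of the permutation test was 0.074. The other H19 probe gave 0.54 with Mest. The remaining 7 called pairs had r from 0.48 to 0.62 over the 22 arrays and from 0.07 to 0.44 over the 18. Among them, H19 and Peg3 had r = 0.86 over the knockout arrays and 0.38 over the wild-type arrays, a difference that was not tested. The other bright Peg3 probe gave only 0.29 with H19 over the 22 arrays.

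**Figure D4:**
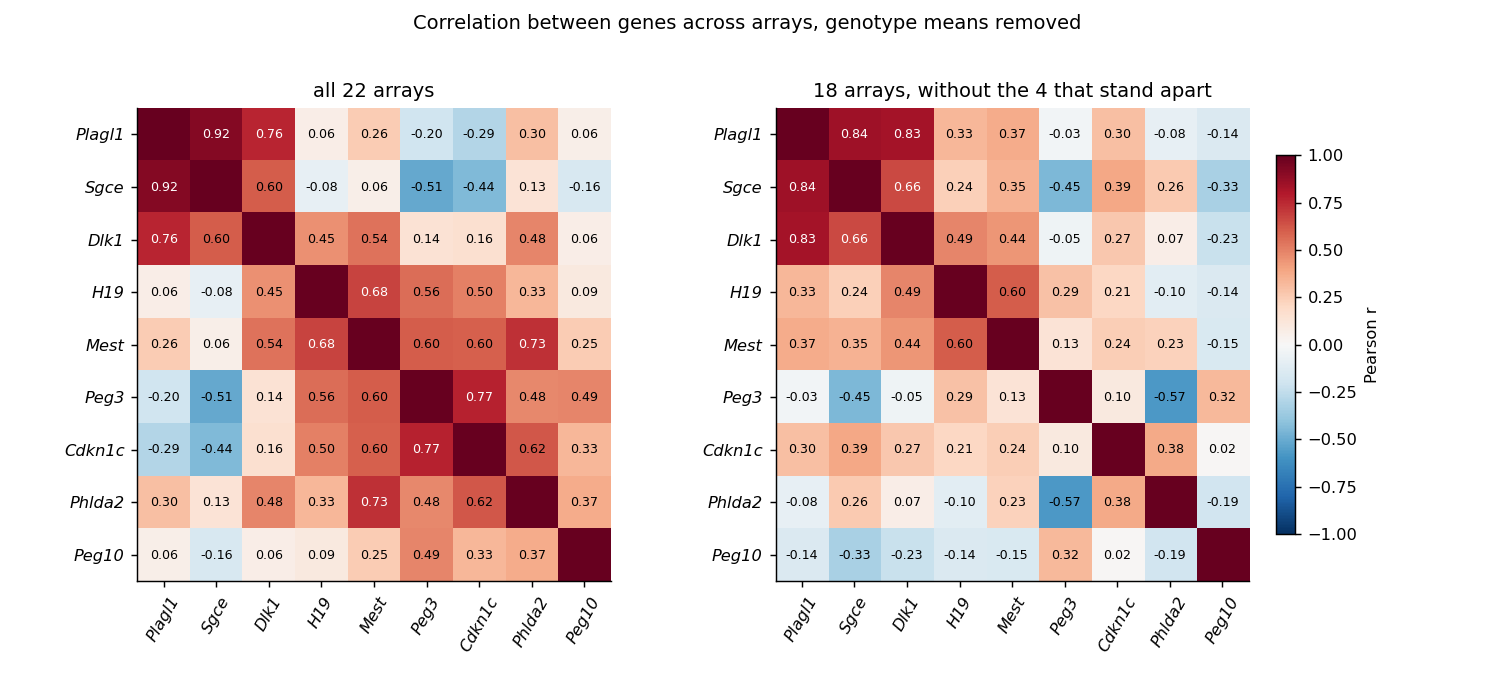
Pearson r between the 9 genes across arrays, genotype means removed, as colour and number, over all 22 arrays on the left and over the 18 arrays other than those that stand apart on the right. Plagl1, Sgce and Dlk1 hold r of 0.66 to 0.84 among themselves on the right, while Peg3 and Cdkn1c go down to 0.10.

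Marker genes of nearly all listed cell types moved on the same arrays. The 6 of 6 measured endothelial markers averaged between 2.12 and 3.31 on the log2 ratio scale over knockout arrays and between 1.83 and 3.37 over wild-type arrays. They lay 0.92 below the genotype mean in knockout 12 and 1.26 below it in wild type 1. These arrays were lowest of their genotypes for Peg3, Cdkn1c, Mest and Phlda2. For Peg3 in wild type 1 this depended on the background correction. Its tested probe stood there at 2.39, but at 3.55 without that correction and at 4.37 with the scanner's ratio. Wild type 6 was lower in both of these, at 2.91 and 3.67. The 8 of 8 cartilage markers ran from 2.85 to 3.73 in knockout and from 2.42 to 4.02 in wild type, and lay 0.49 below the mean in knockout 12 and 1.13 below it in wild type 1. Limb mesenchyme lay 0.73 below the mean in knockout 12 and 0.71 below it in wild type 1, and skeletal muscle lay 0.48 below it in knockout 12 and 0.59 below it in wild type 1. In all, 11 of the 11 marker lists were below the genotype mean in knockout 12 and 10 of 11 in wild type 1, where the 3 measured liver and trunk markers were 1.01 above it. In knockout 5 and wild type 3, the lowest for Plagl1 and Sgce, the 6 of 6 erythroid markers lay 0.50 and 0.68 above the mean. Most other lists lay above it too, among them limb mesenchyme by 0.43 and 0.39 and endothelium by 0.25 and 0.29. The exceptions were liver and trunk at -0.21 in knockout 5, and cartilage at -0.02 and neuron at -0.08 in wild type 3. The part of these cell types in the correlations was not tested.

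H19 and its neighbour Igf2 gave the closest link within an imprinted cluster. The genes lie 72.6 kb apart on chromosome 7 and are known to share enhancers, with Igf2 expressed from the paternal copy. Igf2 had a log2 ratio of 3.95, 4.17 and 4.36 (lowest, median and highest) in knockout and 4.04, 4.17 and 4.72 in wild type. Of 18605 other genes, Igf2 was the one with the highest r to H19, 0.89, with rho = 0.89. The r was 0.83 over the knockout arrays, 0.91 over the wild-type arrays and 0.89 with slide means removed. It was again 0.89 over the 18 arrays, where Igf2 ranked 10. The 4 combinations of the 2 probes of each gene gave r from 0.66 to 0.89. Igf2 was picked as the highest of all genes, so these values are a description.

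Other neighbours did not all move together. Dlk1 and Meg3, the maternally expressed RNA 77.7 kb away, had r = 0.59 over all arrays and 0.73 over the 18. With Rian, 140.6 kb away, Dlk1 had only 0.17 and -0.02, and with Mirg, 271.6 kb away, 0.21 and 0.07. Cdkn1c and Phlda2, 40.5 kb apart, had r = 0.62 and 0.38. Cdkn1c had 0.54 and 0.06 with Kcnq1, and 0.10 and 0.0009 with Slc22a18. Peg3 and Usp29, whose starts are 96 bases apart and face away from each other, had r = 0.45 and -0.20. With Zim1, 7.4 kb away, Peg3 had 0.51 and 0.53. For Sgce and Peg10 r was -0.16 and -0.33, with Peg10 near background. Mest and Copg2, which overlap at their ends, had r = -0.17 and -0.08.

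**Figure D5:**
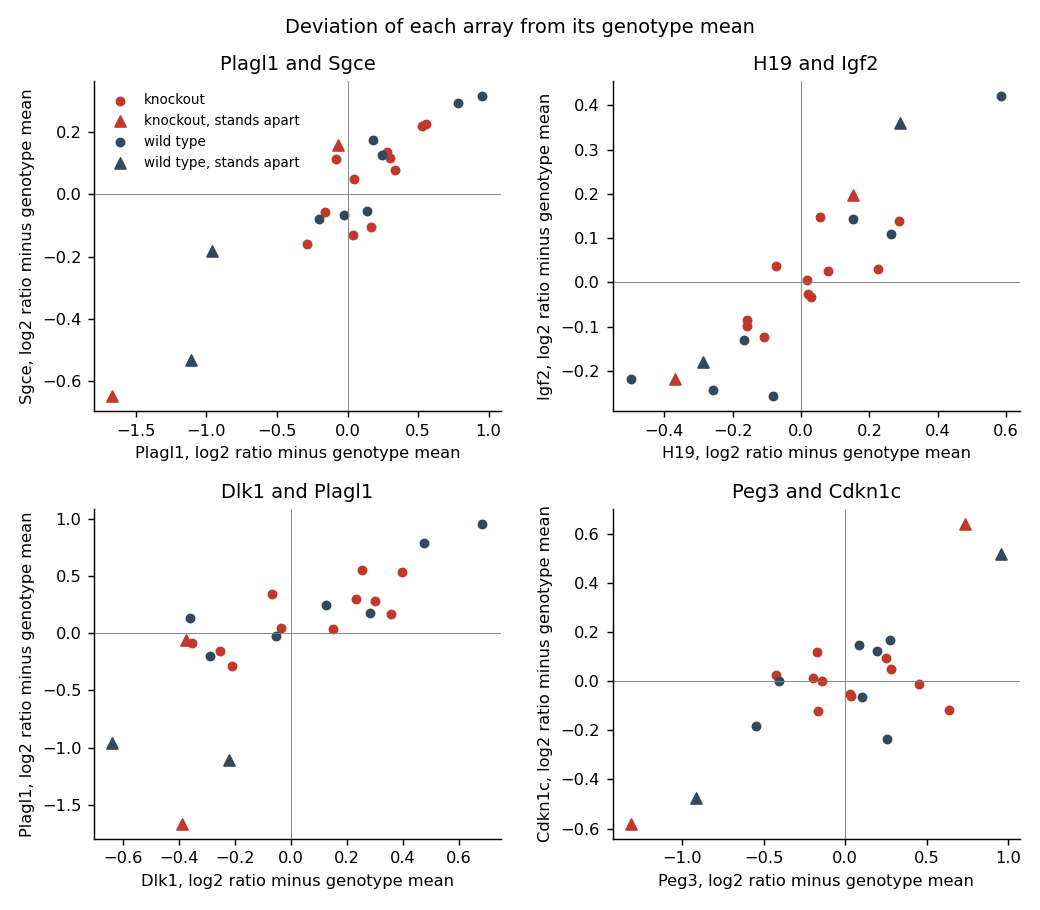
Deviation of each array from its genotype mean in log2 ratio for Plagl1 and Sgce, H19 and Igf2, Dlk1 and Plagl1, and Peg3 and Cdkn1c; red marks knockout arrays, dark marks wild-type arrays, and triangles the 4 arrays that stand apart. The first 3 panels keep a slope among the round points, while the round points of Peg3 and Cdkn1c, r = 0.10, do not.

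For each member the 3 named genes outside the set with the highest r over the 22 arrays were recorded, as a description. After Igf2, H19 was followed by Ankrd9 (0.88) and the histocompatibility gene H2-Q1 (0.88). Dlk1 was closest to the smooth muscle actin Acta2 (0.93), the focal adhesion gene Tgfb1i1 (0.91) and the actin-severing gelsolin Gsn (0.89), and over the 18 arrays these had 0.92, 0.87 and 0.93. Plagl1 was closest to the endocytic adaptor Dab2 (0.94), the dermatan sulfotransferase Chst14 (0.92) and Abhd4 (0.90), with 0.85, 0.90 and 0.73 over the 18 arrays. Sgce was closest to Mpzl1, Lman1 and Vdac2, all at 0.95, with 0.87, 0.92 and 0.85 over the 18 arrays. These partners held most of their likeness without the 4 arrays.

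Those of Cdkn1c did not. It was closest to Rasip1 (0.89), Megf6 (0.87) and Otub1 (0.86), which had 0.38, 0.68 and 0.34 over the 18 arrays. Mest was closest to the microfibril gene Mfap4 (0.86), the endothelin receptor gene Ednra (0.86) and LOC665180 (0.86), with 0.69, 0.68 and 0.65. Phlda2 was closest to Pgap4 (0.96), the endothelial receptor gene Robo4 (0.95) and the Notch target Heyl (0.95), with 0.72, 0.70 and 0.82. Peg3 was closest to Lrp3, Fam110b and Grip1, all at 0.94, with 0.83, 0.81 and 0.83. Peg10 was closest to Eda (0.85), Edc3 (0.79) and Prickle2 (0.77), with the limit that its own signal was near background.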

How the data were processed

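RNA of 22 forelimb samples was measured on two-colour Agilent arrays. Sample labels gave the groups and the replicate numbers. The submitters' processing notes name Agilent Feature Extraction 9.5 (9.5.3.1 in the file headers). The mean spot and background values are raw intensities per the file headers, and the scanner's ratio is log10 of Cy5 over Cy3 after the software's own background and dye correction. The authors' deposited value table equals those log10 ratios (largest difference 0, column medians 0). Flags for background, saturation and outliers are deposited as 0 or 1.

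Intensities were corrected with normexp (offset 50) and normalised by loess within arrays, with control and outlier spots at weight 0, and left out afterwards. Spots of a probe were averaged to a log2 ratio. The 27780 probes with Cy5 well above background on 9 or more arrays were kept. Gene names were updated through RefSeq for GRCm38.p6, while probe coordinates stay on mm8 as in the files. Knockout minus wild type was estimated without covariates by lmFit and eBayes (limma 3.58.1, R 4.3.3) and p-values were adjusted by Benjamini-Hochberg over all 18625 genes and unnamed probes. Correlations used 100000 permutations, or all of them over the 9 wild-type arrays. The fit and the permutation test were tested on simulated data. Named genes included all members, the 8 other imprinted genes with the smallest p, 3 partners a member and Chsy1. Also named were Ccne1, Cdkn1a and Cdkn1b of the G1 list and some of the imprinted neighbours compared with members. Members, lists and tests were chosen with earlier results of these data known. Alternatives covered background correction, normalisation within and between arrays, the scanner ratio, the probe filter, averaging of probes, blocks and omission of arrays. No pair of arrays held identical values.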

Additional observations from a re-analysis of the deposited data

Results flagged for a closer look

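Phlda2 had a log2 ratio of 2.03 in wild type 1, while the other 8 wild-type arrays lay close together, so this array was far from the others by Dixon's test. It was 1 of 9 genes tested in the wild-type group, and chance flags about 1 in 20. Wild type 1 was also the array that deviated most over all genes.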

How the results depend on the processing

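No member passed the adjusted threshold under any alternative or omission; the smallest adjusted p in limma was 0.11, for H19 under median centring. Of 297 recomputed member differences 282 kept their direction. Position as a block and position 2 alone were counted separately there, though they give the same differences. Median centring put the all-gene median at 0.24 and gave H19 0.28, Dlk1 0.22, Peg3 0.085, Cdkn1c 0.054, Mest 0.28 and Phlda2 0.22. Relative to that shift these were 0.04, -0.02, -0.15, -0.18, 0.04 and -0.02. The medians of the other imprinted genes and of the G1 list were then 0.28 and 0.29. Only position 2 holds both genotypes, so position as a block takes each difference from that position alone. Both settings gave Plagl1 -0.23 and Sgce -0.058, and they are 1 check of the direction. Sgce was -0.0017 over the 18 arrays. The cause of these changes of sign was not tested. Omitting 1 array gave -0.049 to 0.0014 for Peg10 (highest without wild type 2), -0.011 to 0.11 for Sgce (lowest without wild type 3) and -0.21 to 0.021 for Phlda2 (highest without knockout 12). Called genes numbered 2 to 6 with 1 array left out, 1 with median centring, the scanner ratio, or slide or position as a block, and 0 in limma in position 2 alone, where 436 genes had an unadjusted p under 0.05.

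Forelimb to reference ratios (log2) under median centring were H19 3.64, Dlk1 2.75, Peg3 3.74, Cdkn1c 6.92, Plagl1 5.38, Mest 7.95, Peg10 0.10, Sgce 2.11 and Phlda2 3.79. With the scanner ratio, which has no offset, Peg3 was 4.11, Mest 7.46, Peg10 1.78 and Phlda2 4.81, so dim signals limit those levels.

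Correlated pairs numbered 5 by Spearman's rho, 3 in knockout arrays, 1 in wild-type arrays, 6 without background correction, 3 over the 18 arrays, and 6 to 16 with 1 array left out. With the scanner ratio 12 pairs were called, 7 of them among the 14, and Dlk1 and Phlda2 had r = -0.22. Median centring gave 19 pairs, 11 among the 14.

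Same-numbered knockout and wild-type arrays did not deviate together: their correlations ran from -0.31 to 0.49, and 2 of 9 wild-type arrays matched their own number best. With the replicate block, over knockout 1 to 9 and wild type 1 to 9, 1 gene was called and Phlda2 was 0.065.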
